A study of Crinum x powellii with 21 samples.

Results

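The genes described here are 80 assembled genes of Crinum x powellii 'Album' that were low in a set of callus libraries, grown in light on a medium holding 2,4-D at 2 mg/L, and expressed in every other callus library. They were chosen on the data themselves. Each had under 4 CPM (the reads of a gene scaled by the total of its library) in the 3 libraries of light-grown callus at 2 mg/L and at least 10 CPM in each of the 8 other callus libraries. A further limit kept the highest organ mean under 4 times the next, after 1 CPM was added to both. Of 676992 genes with counts, 86 met the levels, 6 of these were removed by the organ limit, and 80 remained. The rule allowed for at most 200 genes, so no gene was lost to that ceiling. The contrast of light-grown callus at 2 mg/L with the other callus is therefore what chose the genes, and its values are given as a description without a test.

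Polyadenylated RNA was sequenced from 21 libraries, 11 of callus and 10 of organs, all of the genotype Album. The callus groups were light-grown callus with 2 mg/L of 2,4-D (n = 3), light-grown callus with 4 mg/L (n = 3), dark-grown callus with 4 mg/L (n = 3) and dark-grown callus with 2 mg/L (n = 2). Light meant 14 h of light and 10 h of darkness a day, and darkness lasted 24 h. The organ groups were root (n = 2), leaves (n = 3), basal plate (n = 2) and bulb (n = 3), taken from purchased bulbs after cold storage. All callus came from bulb scale explants on a medium that also held the cytokinins BAP and kinetin, so these were shared by the 4 callus groups. The titles of the 2 mg/L libraries carry a 3 where those at 4 mg/L carry a 4, and the dose used here is that of the treatment label. The callus libraries were made from kit-purified RNA and the organ libraries from RNA extracted in CTAB, so tissue and isolation method cannot be told apart in any setting of callus beside organs. Library totals ran from 26403881 to 67502918 estimated counts. The labels name no separate cultures or plants behind the replicates, so p-values measure the spread between these libraries only.

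Callus is the largely unorganised tissue that plant cells form when cultured with auxin and cytokinin. 2,4-D is a synthetic auxin that plant cells break down slowly and that is widely used to start and keep callus and somatic embryos. Light acts on cultured cells through photoreceptors, and it changes chloroplast development and many other processes. In the tables used here the features carry names of the Trinity assembler only. Gene annotation and sequences were not used here, so no function is given to any of the 80 genes and no tissue was checked by marker genes. Names are shortened below by the prefix Crpow_TRINITY_ that all features share.

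Light-grown callus at 2 mg/L held these genes at a residual level, not at zero. Their median was 2.35, 1.5 and 1.29 CPM in its replicates A, B and C. It was 18.3, 20.9 and 17.7 CPM in light-grown callus at 4 mg/L, 22.7, 26.2 and 22 CPM in dark-grown callus at 4 mg/L, and 27.6 and 30.7 CPM in dark-grown callus at 2 mg/L. Every gene had reads in light-grown callus at 2 mg/L, with pooled counts over its 3 libraries from 16 to 534 (median 259.5). In 42 of the 80 genes each of these libraries had at least 1 CPM, and in 13 each had under 1 CPM. The word "off" therefore fits few of them, and they are called low genes here. In bulk tissue, fewer cells that express a gene and less RNA of it per cell cannot be told apart.

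**Figure D1:**
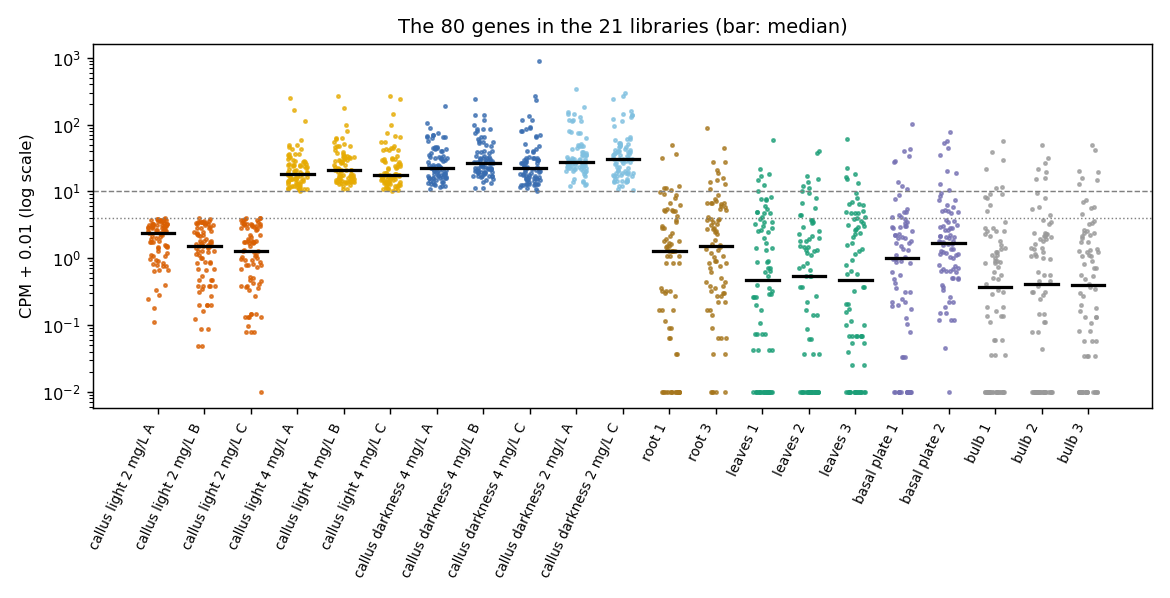
CPM of the 80 genes (points, with 0.01 added, log axis) in each of the 21 libraries, coloured by group; bars mark the medians and the dotted and dashed lines the 4 and 10 CPM of the rule. The 3 libraries of light-grown callus at 2 mg/L have medians of 2.35, 1.5 and 1.29 CPM, the other 8 callus libraries lie at or over 10 CPM by choice, and the organ medians run from 0.364 to 1.69 CPM.

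The mean CPM of the 8 other callus libraries was 3.57 to 515.3 times that of light-grown callus at 2 mg/L, with a median of 17.1 times. Over the 12152 genes with at least 10 CPM in those 8 libraries, termed expressed callus genes below, this median was 1.13 times. Per transcript length, the low genes averaged 0.0876 to 8.52 TPM (a read level scaled by transcript length and by library, median 1.24) in light-grown callus at 2 mg/L and 3.57 to 606.0 TPM (median 19.4) in the 8 other callus libraries. The median of the expressed callus genes in the same 8 libraries was 25.6 TPM. The 80 genes together took 0.0128% to 0.0175% of the counts in light-grown callus at 2 mg/L, against 0.218% to 0.391% in the other callus libraries.

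The gene with the highest ratio of the rule was also the most abundant per length. DN50762_c0_g1 had 3.79, 1.48 and 1.70 CPM in light-grown callus at 2 mg/L, from 224, 39 and 99 counts. It had 251.9, 268.8 and 240.5 CPM in light-grown callus at 4 mg/L, 191.1, 238.4 and 233.6 CPM in dark-grown callus at 4 mg/L, and 339.5 and 239.2 CPM in dark-grown callus at 2 mg/L. The 8 high libraries spanned less than a 2-fold range, and all 3 low libraries lay far under them. Among the organs it had 0 counts in the leaf and bulb libraries, in root replicate 1 and in basal plate replicate 1, while root replicate 3 had 6.54 CPM and basal plate replicate 2 had 3.09 CPM. Its mean was 4.92 TPM in light-grown callus at 2 mg/L and 606.0 TPM in the 8 other callus libraries.

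The other end of the list lay close to the limits of the rule. The lowest ratio kept, of the lowest other callus CPM plus 0.5 to the highest CPM in light-grown callus at 2 mg/L plus 0.5, was 2.53, and the median was 5.2. The highest value inside the lower limit was 3.98 CPM and the nearest value outside it 4.01 CPM. The lowest value inside the upper limit was 10.03 CPM and the nearest outside it 9.97 CPM. A further 210 genes met the upper limit with a highest level of 4 to under 8 CPM in light-grown callus at 2 mg/L, and 287 met the lower limit with a lowest other callus level of 5 to under 10 CPM. The 80 genes are thus the strict end of a continuous range.

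The same levels were asked of each callus group in turn. Under 4 CPM in that group alone were 86 genes for light-grown callus at 2 mg/L, 0 for light-grown callus at 4 mg/L, 0 for dark-grown callus at 4 mg/L and 2 for dark-grown callus at 2 mg/L. With the levels reversed, at least 10 CPM in that group and under 4 CPM in all other callus, there were 192, 27, 1 and 0 genes in the same order. The groups differ in size, with 2 libraries for dark-grown callus at 2 mg/L and 3 for each other group.

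Within light-grown callus at 2 mg/L, the residual level was uneven between replicates. Replicate A was the highest of the 3 libraries in 49 of the 80 genes, replicate B in 14 and replicate C in 17. Among the expressed callus genes, replicate A was highest in 24.5%, B in 34.1% and C in 41.4%. Replicate A had at least 2 times the CPM of both other libraries in 28 of the 80 genes, replicate B in 3 and replicate C in 1. Of 92111 genes whose pooled counts in light-grown callus at 2 mg/L lay in the same range of 16 to 534, replicate A had such an excess in 7.35%, B in 7.54% and C in 1.23%. Those genes share only this range, not the level in other callus. The rule also used these libraries, so the excess is a description. Library totals were 59071345, 26403881 and 58100495 counts in A, B and C, so A was not the shallowest library. Without replicate A, the median fold of the 8 other callus libraries over light-grown callus at 2 mg/L was 22.4 times, with a range of 3.37 to 970.1.

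**Figure D2:**
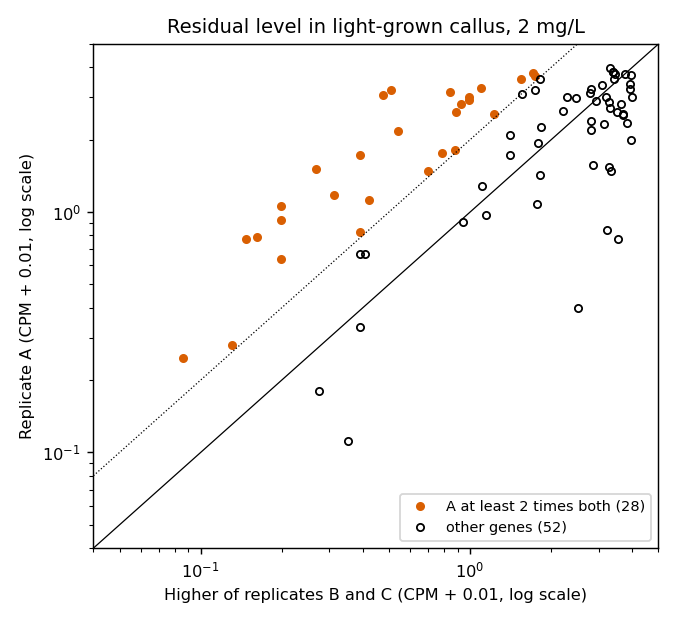
CPM of the 80 genes in light-grown callus at 2 mg/L, replicate A against the higher of replicates B and C (0.01 added, log axes; solid line, equal values; dotted line, 2 times). Filled points are the 28 genes with at least 2 times the CPM of both other libraries in replicate A.

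Of the 3 genes with an excess in replicate B instead, a pair, set side by side after their values were seen, resembled each other across libraries. DN19687_c0_g1 had 0.389, 2.5 and 0.327 CPM in light-grown callus at 2 mg/L, replicates A to C, and DN9041_c0_g1 had 0.762, 3.52 and 0.516 CPM. In dark-grown callus at 4 mg/L, replicates A to C, DN19687_c0_g1 had 65.1, 98.3 and 909.8 CPM and DN9041_c0_g1 had 33.2, 33.3 and 271.7 CPM. Both were thus highest of all 21 libraries in dark-grown callus at 4 mg/L replicate C. Each also had its highest organ value in root replicate 1, at 3.70 CPM for DN19687_c0_g1 and 3.46 CPM for DN9041_c0_g1. The third gene, DN14777_c0_g1, did not share this pattern. It had 0.102, 0.341 and 0.0688 CPM in light-grown callus at 2 mg/L, replicates A to C. In dark-grown callus at 4 mg/L it had 38.1, 24.9 and 20.5 CPM, and its highest organ value was 40.7 CPM in basal plate replicate 1.

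Light against darkness at 4 mg/L is a contrast the rule did not use, apart from asking for at least 10 CPM in all 6 libraries. Of the 80 genes, 20 differed between light-grown and dark-grown callus at 4 mg/L at an adjusted p under 0.05 (edgeR quasi-likelihood test, Benjamini-Hochberg over 121349 genes), and such genes are termed called. Light-grown callus was higher in 4 of them and lower in 16. Over all genes tested 12.6% were called, 7.32% higher and 5.28% lower in light. Over the expressed callus genes, which share the level asked of the 80, these shares were 25.3%, 8.92% and 16.4%, so the 25% called among the low genes lay at that background. The 16 genes that fell in light changed by -3.62 to -0.70 on the log2 scale (median -1.04), and the 4 that rose changed by 0.77 to 2.36 (median 1.36). The median log2 fold change of all 80 was -0.21, against -0.15 for the expressed callus genes.

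The largest rise in light at 4 mg/L was that of DN2521_c0_g1. It had 164.8, 175.7 and 265.1 CPM in light-grown callus at 4 mg/L, against 40.2, 54.7 and 26.4 CPM in dark-grown callus at 4 mg/L. All 3 light-grown libraries lay over all 3 dark-grown ones, with a log2 fold change of 2.36 ± 0.29 (SE, n = 3 each) and an adjusted p of 6.20e-07 by edgeR. At 2 mg/L, where the rule fixed the order, it had 3.57, 1.51 and 1.81 CPM in light and 43.6 and 61.5 CPM in darkness. The next, DN51666_c0_g1, had 50.2, 62.9 and 68.6 CPM in light-grown callus at 4 mg/L, against 15.6, 31.1 and 23.3 CPM in dark-grown callus at 4 mg/L. Its log2 fold change was 1.40 ± 0.31 (SE, n = 3 each; edgeR adjusted p = 0.00238). It was not called by DESeq2 (log2 fold change 1.36, adjusted p = 0.131) or by limma on log2(TPM + 0.1) (log2 fold change 1.34, adjusted p = 0.0882).

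The largest fall in light at 4 mg/L was that of DN19687_c0_g1. It had 14.9, 42.1 and 31.2 CPM in light-grown callus at 4 mg/L, against the 65.1, 98.3 and 909.8 CPM of dark-grown callus at 4 mg/L given above. The groups did not overlap, and the log2 fold change was -3.62 ± 0.66 (SE, n = 3 each; edgeR adjusted p = 0.000255), or -1.43 without dark-grown callus at 4 mg/L replicate C. The limma fit on log2(TPM + 0.1) did not call it (log2 fold change -2.75, adjusted p = 0.058). DN6655_c0_g1 had 14.4, 12.0 and 10.4 CPM in light-grown callus at 4 mg/L, against 43.9, 50.0 and 64.7 CPM in dark-grown callus at 4 mg/L. Its log2 fold change was -2.13 ± 0.24 (SE, n = 3 each; edgeR adjusted p = 2.34e-07). All 3 light-grown libraries at 4 mg/L lay under all 3 dark-grown ones.

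**Figure D3:**
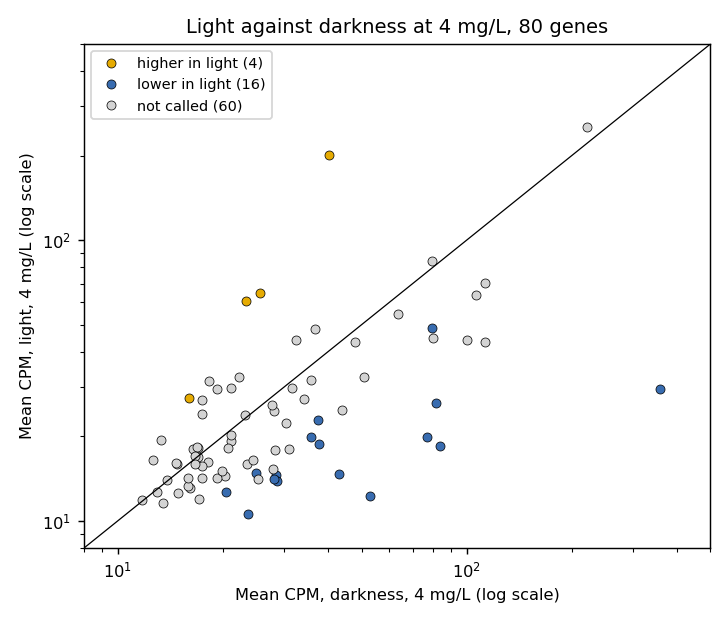
Mean CPM of the 80 genes in light-grown callus at 4 mg/L (vertical) against dark-grown callus at 4 mg/L (horizontal), n = 3 libraries each, log axes, with a line of equal values. The 4 genes called higher in light lie over the line and the 16 called lower lie under it, while 60 were not called.

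The dose of 2,4-D in darkness was likewise not part of the choice beyond the level asked. Between dark-grown callus at 4 and at 2 mg/L, 2 of the 80 genes were called, both higher at 4 mg/L. An unadjusted p under 0.05 was reached by 22 of the 80 (27.5%), 8 higher and 14 lower at 4 mg/L, against 7.98% of all genes tested and 11.2% of the expressed callus genes (9.81% higher, 1.37% lower). The median log2 fold change was -0.19 over the 80 genes and 0.14 over the expressed callus genes, so the 2 calls and the median of the list differed in sign. Of all genes tested 0.503% were called, 0.419% higher and 0.0832% lower at 4 mg/L. Of the expressed callus genes 0.774% were called, 0.741% higher and 0.0329% lower. DN19687_c0_g1 had 65.1, 98.3 and 909.8 CPM at 4 mg/L and 30.1 and 15.4 CPM at 2 mg/L, with a log2 fold change of 4.16 ± 0.80 (SE, n = 3 and 2; edgeR adjusted p = 0.0101). DN9041_c0_g1 had 33.2, 33.3 and 271.7 CPM at 4 mg/L and 23.5 and 10.9 CPM at 2 mg/L, with a log2 fold change of 2.89 ± 0.69 (SE, n = 3 and 2; edgeR adjusted p = 0.0498). Their libraries did not overlap between the doses, but both differences leaned on replicate C at 4 mg/L. Without it their log2 fold changes were 1.96 and 1.07, neither was called (adjusted p = 0.0694 and 0.679), and 0 of the 80 genes were. The count was also 0 with the replicate letter as a block, where 665 of 121349 genes tested were called. It was 1 without light-grown callus 2 mg/L replicate C, 4 mg/L replicate B or 4 mg/L replicate C (595, 528 and 760 genes called). Without replicate A or C of dark-grown callus at 2 mg/L, a lone library remained there. The median log2 fold change of the 80 genes was then -0.14 or -0.23. Under library totals 2 other genes were called, both lower at 4 mg/L, where 381 of 121349 genes tested were called. DN19687_c0_g1 and DN9041_c0_g1 stayed higher at 4 mg/L under library totals but were not called. The median log2 fold change of all genes tested was -0.03 under TMM and -0.20 under library totals.

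Among the 3 other callus groups, the low genes had their highest mean CPM in dark-grown callus at 2 mg/L in 55 of 80 cases, in dark-grown callus at 4 mg/L in 15 and in light-grown callus at 4 mg/L in 10. The shares over the expressed callus genes were 43.8%, 25.2% and 31.0% in the same order. Light-grown callus at 4 mg/L was the lowest of the 3 groups in 50 of 80, and in 56.4% of the expressed callus genes. The highest of the 8 libraries was 2.61 times the lowest for the median low gene, with a range of 1.27 to 61.2 times, and 1.72 times for the median expressed callus gene. The low genes thus varied among the callus libraries in which they were expressed, too.

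Most of the low genes had low levels in the organs as well. In 69 of the 80, every organ mean lay under the lowest of the 8 other callus libraries, against 15.0% of the expressed callus genes. The median CPM over the 80 genes was 1.27 and 1.53 in root, 0.46, 0.522 and 0.459 in leaves, 0.983 and 1.69 in the basal plate, and 0.364, 0.406 and 0.383 in bulb. All these medians lie near or under those of light-grown callus at 2 mg/L. The mean in bulb, the organ of the explants, was under the mean in light-grown callus at 2 mg/L for 61 of the 80 genes. The same held for leaves in 55, root in 42 and the basal plate in 38 genes, and for every organ at the same time in 30.

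**Figure D4:**
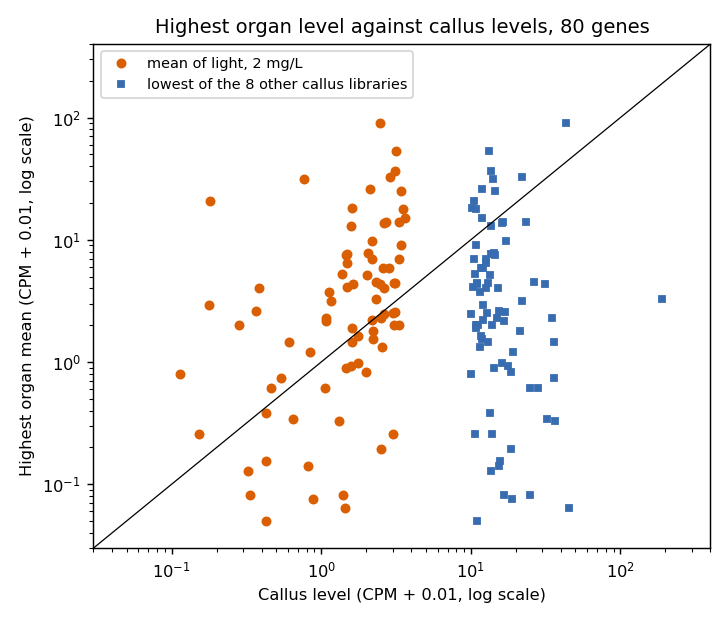
Highest of the 4 organ means (vertical) for each of the 80 genes against its mean in light-grown callus at 2 mg/L (circles) and its lowest value in the 8 other callus libraries (squares), as CPM with 0.01 added on log axes; the line marks equal values. The squares of 69 genes lie to the right of the line, and the circles of 30 genes do.

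By their organ levels the genes fell into 3 classes. In 14 of the 80 genes (17.5%) every organ library was under 1 CPM, against 0.453% of the expressed callus genes. Leaving out basal plate replicate 2, in which 1 of the 80 genes had 0 counts against 16 in basal plate replicate 1, there were 21 such genes. At the other end, 13 genes (16.2%) had at least 10 CPM in every library of at least 1 organ, against 93.8% of the expressed callus genes, and 53 genes lay between. Among the 86 genes before the organ limit of the rule, which bears on these counts, the numbers were 14 and 17. Of the 6 genes that the limit removed, 3 were highest in root, 2 in leaves and 1 in the basal plate. The 14 genes without appreciable organ expression had a median mean of 0.679 TPM in light-grown callus at 2 mg/L and 26.7 TPM in the 8 other callus libraries. For the 13 genes expressed in an organ these medians were 2.23 and 15.7 TPM. Among those 13, 7 were called lower in light at 4 mg/L and 0 higher. Among the 53 genes between, 9 were lower and 3 higher, and among the 14, 0 were lower and 1 higher. Over all genes tested 5.28% were called lower and 7.32% higher, and over the expressed callus genes 16.4% and 8.92%. No share is given for genes of like organ levels. The difference between the classes was not tested. The highest organ mean lay in the basal plate for 32 of the 80 genes, in root for 25, in leaves for 19 and in bulb for 4. The shares over the expressed callus genes were 20.6%, 33.7%, 24.3% and 21.5% in the same order. The median expressed callus gene had 12.3 TPM in basal plate replicate 2 and 24.3 TPM in basal plate replicate 1. Without basal plate replicate 2, root was highest for 38 and the basal plate for 18.

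A pair of genes, named after their values were seen, had at least 10 CPM in all 10 organ libraries, which held for 75.3% of the expressed callus genes. DN2440_c1_g1 had 2.96, 2.46 and 1.94 CPM in light-grown callus at 2 mg/L and 43.5 to 120.6 CPM in the 8 other callus libraries. Its organ values were 48.6 and 88.3 CPM in root, 16.9, 16.8 and 15.4 CPM in leaves, 103.2 and 76.5 CPM in the basal plate and 39.5, 31.3 and 41.0 CPM in bulb. DN1968_c0_g1 had 2.81, 3.64 and 2.99 CPM in light-grown callus at 2 mg/L and 13.3 to 39.1 CPM in the 8 other callus libraries. It had 35.4 to 60.9 CPM in the 10 organ libraries, so for this gene all organ libraries but root replicate 1 and basal plate replicate 2 lay over every callus library. In both genes the 3 libraries of light-grown callus at 2 mg/L were the lowest of all 21.

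The organs were set against bulb in a fit of the 10 organ libraries. The organ limit of the rule caps how far an organ can stand out, and 67 of the 80 genes passed the filter on low counts, so these counts describe the genes and support nothing further. Leaves differed from bulb in 37 of the 67, 16 higher and 21 lower in leaves, where 42.1% of all genes tested were called, 22.5% higher and 19.6% lower. Of the expressed callus genes 63% were called, 7.05% higher and 55.9% lower in leaves. The split was 19 higher and 19 lower under RLE size factors and 22 higher and 15 lower under library totals. The median log2 fold change of all genes tested was 0.50 with TMM, rising to 0.66 when RLE factors were used and to 1.16 when only totals were used, and directions are relative to the TMM value. Root differed from bulb in 27 of the 67, 23 higher and 4 lower in root, where 8.58% of all genes tested were called, 5.27% higher and 3.3% lower. Of the expressed callus genes 15.9% were called, 9.61% higher and 6.3% lower in root. This count was 17 without bulb replicate 1, where 4548 of 100232 genes tested were called. The median log2 fold change of the low genes tested was 1.10, and 0.27 without root replicate 3. The basal plate differed from bulb in 25 of the 67, 19 higher and 6 lower in the basal plate, where 22% of all genes tested were called, 11.4% higher and 10.5% lower. Of the expressed callus genes 49.4% were called, 4.39% higher and 45% lower in the basal plate. This count was 16 without bulb replicate 2 or 3, where 11182 of 101176 and 18772 of 99998 genes tested were called. Under library totals it was 44 (39 higher, 5 lower), where 33111 of 100919 genes tested were called. The median log2 fold change of the low genes tested was 1.03, and 1.32 and 0.52 without basal plate replicate 1 and 2. The median of all genes tested for the basal plate was 0.54 under TMM and 1.25 under library totals.

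Single genes showed how these differences arose at low levels. DN5550_c0_g1 had 0, 0 and 4 counts in leaves, against 9.09, 15.1 and 13.0 CPM in bulb. Root had 9.04 and 16.0 CPM and the basal plate 5.50 and 57.4 CPM, so leaves were the organ without appreciable reads of it (edgeR adjusted p = 2.31e-06 for leaves against bulb, n = 3 each). The pooled counts, 4 in leaves and 1349 in bulb, gave a level 416.8 times higher in bulb, with a 95% counting interval of 162.4 to 1532. DN28838_c0_g1 was higher in leaves, with 0.381, 1.77 and 0.770 CPM in leaves and 0, 0 and 2 counts in bulb. The adjusted p of edgeR was 0.0206 (n = 3 each), the pooled ratio was 53.4 with a counting interval of 14.5 to 445.5, and DESeq2 did not call it (adjusted p = 0.0703). It was not called either without leaves replicate 2 (adjusted p = 0.0752) or without bulb replicate 1 or 2 (0.0827 and 0.0785).

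For root against bulb, the largest called rise was that of DN50762_c0_g1 (log2 fold change 10.39, edgeR adjusted p = 0.0411). It had 0 and 6.54 CPM in root and 0 counts in bulb, so it rested on root replicate 3 alone. Among called genes without overlap between the groups, DN13405_c1_g1 had the largest rise, with 1.51 and 6.60 CPM in root and 1, 1 and 0 counts in bulb. The edgeR adjusted p was 0.000333 (n = 2 and 3), and the pooled ratio was 225.3 with a counting interval of 61.8 to 1868. Its component also holds DN13405_c1_g2, another of the 80 genes, and reads may have been split between them. The largest fall in root was that of DN4225_c0_g2, with 1.77 and 1.03 CPM in root and 11.5, 15.7 and 14.7 CPM in bulb (log2 fold change -3.47 ± 0.40 (SE), n = 2 and 3, edgeR adjusted p = 4.15e-05). The same gene had the largest fall in the basal plate, with 0.555 and 0.641 CPM there (log2 fold change against bulb -5.27 ± 0.45 (SE), n = 2 and 3, edgeR adjusted p = 7.01e-06). Its bulb libraries were over all other organ libraries, and those comparisons share the bulb libraries. DN5792_c0_g2 had 0.601 and 1.18 CPM in the basal plate and 0 counts in the 3 bulb libraries, and was at least 32.9-fold higher in the basal plate against a floor of 3 counts over the bulb libraries (edgeR adjusted p = 0.00778, n = 2 and 3). Counting intervals and floors cover counting error only.

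The assembly names gave a further view of the 80 genes. Trinity groups genes whose sequences overlap into a component, and the 80 genes came from 79 components. Of the 80, 43 were alone in their component, against 65.6% of the expressed callus genes. A counterpart with the opposite pattern in the same component, at least 10 CPM in each library of light-grown callus at 2 mg/L and under 4 CPM in all other callus, was found for 0 of the 80 genes and for 10 of the 12152 expressed callus genes (0.0823%). With looser levels, at least 4 CPM in light-grown callus at 2 mg/L and lower in every other callus library, 2 of the 80 genes had a counterpart. The share among the expressed callus genes, 15.8%, also counts genes that meet the looser levels themselves, which none of the 80 can. The values therefore cannot be compared.

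Of 44 other genes in the components of the 80, 5 had at least 10 CPM in the 8 other callus libraries, and they did not share a pattern. DN10102_c0_g2 averaged 5.96 CPM in light-grown callus at 2 mg/L and 220.3 CPM in the 8 other callus libraries, and was low together with its partner DN10102_c0_g1. DN3929_c0_g2 averaged 41.1 CPM in light-grown callus at 2 mg/L and 42.9 CPM in the others, while its partner DN3929_c0_g1 had 2.91, 0.985 and 0.792 CPM in light-grown callus at 2 mg/L and 17.7 to 47.0 CPM in the others. These pairs were named after their values were seen. The remaining 3 genes were 1.54, 2.79 and 7.37 times higher in the 8 other callus libraries than in light-grown callus at 2 mg/L.

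The residual reads could also be followed to isoforms. The genes had 1 to 11 isoforms (median 3), and 11 had a single isoform (10.2% of the expressed callus genes did). Of the 69 genes with several isoforms, 52 had the same leading isoform in light-grown callus at 2 mg/L and in the 8 other callus libraries, against 87.2% of 10917 expressed callus genes with several isoforms. The isoform that led in the 8 other callus libraries held a median of 55.8% of the counts in light-grown callus at 2 mg/L and 63.2% in those 8 libraries. For the expressed callus genes these medians were 57.8% and 57.2%. The low genes had fewer reads in light-grown callus at 2 mg/L, and the part of depth in this difference was not tested. Reads per TPM, which grow with the effective length of a transcript, were 0.831 times those of the median expressed callus gene for the median low gene (quartiles 0.556 and 1.23, against 0.640 and 1.47 for the expressed callus genes).

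The choice of the genes was compared with the deposited tables named for salmon. With those counts, 76 of the 80 genes had under 4 CPM in each library of light-grown callus at 2 mg/L, 58 had at least 10 CPM in each of the 8 other callus libraries, and 54 met both. The median log2 ratio of light-grown callus at 2 mg/L to the 8 other callus libraries was -4.02 with salmon, against -4.10 with the counts used here. The difference in level was thus of like size, while the membership at the limits differed between the tables.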

How the data were processed

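The authors deposited tables of TPM and of estimated counts, by isoform and by gene, for 21 libraries, quantified on an assembled transcriptome, per the series design text. The submitters' processing notes name fastp 0.23.4, kallisto 0.46.1 and Salmon 1.4.0 without their roles. Some tables are named for salmon, and for the others, on which the results rest, the quantifier and its settings are not given in the sources used. The deposited gene tables named as counts were left out: in the 1 library compared per table, 100% of values equalled scaled gene TPM (within 1% plus 0.02 counts). The deposited estimated counts per isoform were therefore summed per gene and rounded for the tests. Shared sequence between assembled genes can split reads.

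The rule for the 80 genes used CPM by library total. The genes, comparisons and gene naming were chosen with earlier results of these data known. The rule set a ceiling of 200 genes, and 80 of all 676992 genes met it. Tests used edgeR 4.0.16 (R 4.3.3; quasi-likelihood F test, TMM, filterByExpr), with Benjamini-Hochberg adjustment over all genes and a threshold of 0.05. The 11 callus libraries and the 10 organ libraries were fitted separately. The edgeR fits were tested on simulated data. Genes named are the highest by ratio and by TPM and, among called genes without overlap between the groups, the largest rises and falls by log2 fold change (at most 2 each way in callus, 1 in organs). A pair with the opposite pattern in 1 component was also to be named, and none was found. Alternatives were RLE factors, library totals, other filters, DESeq2 1.42.0, salmon counts, limma 3.58.1 on log2(TPM + 1) or log2(TPM + 0.1), a replicate block, and leaving out each library.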

Additional observations from a re-analysis of the deposited data

How the results depend on the processing

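The count of 20 genes called for light against darkness at 4 mg/L and of 37 for leaves against bulb stayed within 1.5 times under all alternatives (16 to 27 and 31 to 44). For 4 against 2 mg/L in darkness the count of 2 became 0 with at least 1 CPM, DESeq2, either limma fit or the replicate block. Those fits called 87 to 870 of all genes tested. The count was 1 with salmon counts (788 genes called). It was 0 to 2 when single libraries outside dark-grown callus at 2 mg/L were left out (307 to 818 genes called). Root against bulb gave 27, but 17 with limma on log2(TPM + 1) and 17 on log2(TPM + 0.1), and 15 to 40 with libraries left out. The basal plate against bulb gave 25, but 44 with totals only, 8 by limma with a pseudocount of 1 TPM and 14 with 0.1 TPM. Of 100919 genes tested these fits called 33111, 9084 and 15945. With a leaf or bulb library left out the comparison gave 16 to 23, where 10760 to 19062 of all genes tested were called. Both ends of the range given for root against bulb came from fits that keep a lone root or basal plate library. With a leaf or bulb library left out instead, root against bulb gave 17 to 25, where 4548 to 7810 of all genes tested were called. Counts from fits that keep a lone root or basal plate library are not given for the basal plate against bulb. Same-numbered libraries did not deviate together throughout (correlations of deviations -0.31 to 0.39), so the numbers were not taken as pairs. The replicate block gave 20, 37, 22 and 21 called genes in the other 4 comparisons. Over all genes tested it called 14751, 37808, 6617 and 15153. The level rule was met by 37 of the 80 genes on TPM and by 5 with under 2 and at least 20 CPM. Leaving out a callus library can only loosen the rule, so the 80 genes must be chosen again, in lists of 80 to 102 genes. With salmon counts 54 of them were. With salmon counts 0 genes, not 2, were low in dark-grown callus at 2 mg/L alone. The 86 genes low in light-grown callus at 2 mg/L alone became 63 with totals scaled by TMM and 83 with salmon counts. The 192 genes with the reversed levels there became 211 and 203. A counterpart at the looser levels was found for 2 genes. Without basal plate replicate 2 the highest organ was root for 38 genes, not 25, and basal plate for 18, not 32. By TPM root was highest for 32 genes, not 25, basal plate for 25, not 32, and bulb for 2, not 4. The causes of these shifts were not tested. Where a group keeps a lone library, its spread was taken from the other groups. Residual levels rest on as few as 16 reads.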
